A study of Drosophila melanogaster with 3 samples.

Results

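The 33 protein-coding genes of Drosophila melanogaster whose symbol begins with Vha, of 13968 protein-coding genes on the main chromosome arms, encode subunits of the vacuolar ATPase. The rule for a member was its symbol in the gene models of Release 6, and earlier results of these data were known when the rule was written. The study mapped the chromatin protein Lhr by chromatin immunoprecipitation followed by sequencing in 3 libraries, biological replicates 1, 2 and 3 of 1 group. Each library came from intact embryos aged 0 to 14 hours, males and females pooled, of a transgenic line that carries Lhr fused to eGFP at its C-terminus, and an anti-GFP antibody was used. All libraries share the transgene, and there was no second genotype, stage or treatment, so every comparison below is between genes within this 1 group. Whole embryos mix many cell types, and the cells in which a gene was bound are not known from these data.

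The vacuolar ATPase is a rotary proton pump that acidifies lysosomes, endosomes and secretory vesicles, and it also sits in the plasma membrane of some epithelia, such as the Malpighian tubule and parts of the gut. Its V1 sector faces the cytoplasm and hydrolyses ATP. Its V0 sector lies in the membrane and carries the protons. In flies most subunits have 1 widely expressed gene and several have further copies, many of which are known for expression in few tissues, often the testis or the gut. Here the widely expressed gene of each subunit is called the principal copy (14 genes), and every other member is called an other paralog (19 genes). This division rests on general knowledge of the fly pump, since expression was not measured here. Lhr, known from hybrid lethality between fly species, is a partner of Hmr and of heterochromatin protein 1.

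A gene was called bound when the summit of a peak lay within 500 bp of any of its annotated start sites. Peaks were those of the authors' final list for dm6, thresholded on the irreproducible discovery rate (IDR), which holds 5190 peaks. Rank 1 is the peak of highest deposited signal in a list. The IDR list is the same as the strongest 5190 peaks of a combined relaxed list of 20761 peaks, so lower-ranked peaks of the combined list give summits that missed the threshold. The control library was not analysed here. Positions are given from the nearest start site of the gene, with negative values upstream. The lists hold no read counts, so depth is unknown and no counting interval can be given. Nothing in the labels says more than that the replicates are biological, and spread is given over the 3 libraries.

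Upstream sequences are shown for 8 members, to set bound copies beside unbound copies of the same subunit. They are Vha55, the gene with the strongest summit, 3 pairs of copies, and VhaSFD, which just missed the IDR threshold. Each runs 5′ to 3′ on the gene's strand, ends at the base before the start site, and stops early where an annotated exon of any gene begins, so that exons are left out. Bases are from the RefSeq Release 6 genome. Capitals mark exact matches, on either strand, to TATCGATA (the DRE element), GGTCACACT (the site of M1BP), TATAAA (the TATA box) and GAGAG (the site of GAGA factor), and no other word searched occurs in these stretches.
Vha55, chr3R:12627830-12628030, minus strand, bound: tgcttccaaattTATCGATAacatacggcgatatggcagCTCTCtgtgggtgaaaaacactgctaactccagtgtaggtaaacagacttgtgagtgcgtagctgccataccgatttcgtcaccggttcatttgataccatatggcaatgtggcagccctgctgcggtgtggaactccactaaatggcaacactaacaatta
Vha68-2, chr2L:12974022-12974321, plus strand, bound: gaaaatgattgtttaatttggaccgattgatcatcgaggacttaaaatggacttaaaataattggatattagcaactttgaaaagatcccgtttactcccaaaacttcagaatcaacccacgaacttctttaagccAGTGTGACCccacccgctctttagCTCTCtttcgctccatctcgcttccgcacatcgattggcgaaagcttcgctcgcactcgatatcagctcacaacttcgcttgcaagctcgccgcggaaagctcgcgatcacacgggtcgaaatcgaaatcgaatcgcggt
Vha68-3, chr2L:12978608-12978785, plus strand, not bound: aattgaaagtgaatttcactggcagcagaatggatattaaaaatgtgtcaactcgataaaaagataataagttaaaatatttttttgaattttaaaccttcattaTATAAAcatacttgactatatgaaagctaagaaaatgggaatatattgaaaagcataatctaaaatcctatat
VhaPPA1-1, chr3R:14904062-14904361, minus strand, bound: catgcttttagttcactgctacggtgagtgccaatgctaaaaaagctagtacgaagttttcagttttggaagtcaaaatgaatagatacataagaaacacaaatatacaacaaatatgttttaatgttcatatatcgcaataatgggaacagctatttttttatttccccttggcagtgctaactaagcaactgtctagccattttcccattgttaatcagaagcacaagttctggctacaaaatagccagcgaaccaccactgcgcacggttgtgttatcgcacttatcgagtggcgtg
VhaPPA1-2, chr3R:14900278-14900431, minus strand, not bound: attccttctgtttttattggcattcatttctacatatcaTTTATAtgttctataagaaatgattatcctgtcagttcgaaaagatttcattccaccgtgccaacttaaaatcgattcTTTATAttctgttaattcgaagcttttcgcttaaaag
VhaAC39-1, chrX:3880448-3880747, plus strand, not bound: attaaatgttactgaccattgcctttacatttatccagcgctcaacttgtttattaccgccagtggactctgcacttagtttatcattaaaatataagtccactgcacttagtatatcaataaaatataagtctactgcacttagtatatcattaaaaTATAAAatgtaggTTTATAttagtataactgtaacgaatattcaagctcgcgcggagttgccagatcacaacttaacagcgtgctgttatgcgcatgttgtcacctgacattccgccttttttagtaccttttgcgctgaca
VhaAC39-2, chr3R:23159317-23159616, minus strand, bound: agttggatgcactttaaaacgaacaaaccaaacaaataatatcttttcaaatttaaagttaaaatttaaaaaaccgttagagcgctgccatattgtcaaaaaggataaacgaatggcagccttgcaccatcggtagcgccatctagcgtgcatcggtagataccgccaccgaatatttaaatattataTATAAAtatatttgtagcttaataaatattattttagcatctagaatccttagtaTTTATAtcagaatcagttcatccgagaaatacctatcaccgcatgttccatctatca
VhaSFD, chr2L:16727827-16728034, minus strand, not bound: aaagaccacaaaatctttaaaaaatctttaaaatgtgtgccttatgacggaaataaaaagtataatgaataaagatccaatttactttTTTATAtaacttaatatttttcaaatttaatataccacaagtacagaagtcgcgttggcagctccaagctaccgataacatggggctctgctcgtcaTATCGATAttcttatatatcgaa

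Lhr-eGFP lay at the start of about as many pump genes as it missed, and the bound genes were mostly the principal copies. Of the 33 members, 16 were bound (48.5%), where 29.2% of all protein-coding genes were bound. Of the 14 principal copies, 10 were bound (71.4%), and of the 19 other paralogs, 6 were bound (31.6%). With the 5190 strongest peaks of each library, the principal copies were bound at 78.6% ± 18.9 (SD, n = 3 libraries), the other paralogs at 26.3% ± 0, and all protein-coding genes at 28.9% ± 2.33. Replicate 1 had 8 of 14 principal copies (57.1%), replicate 2 had 12 (85.7%) and replicate 3 had 13 (92.9%). The background over all genes in these libraries was 26.6%, 31.2% and 29.1%. Each library held 5 of the 19 other paralogs, although the fifth gene was not the same in all of them. The share of principal copies was thus above both the share of other paralogs and that of all genes in every library, and the spread of 18.9 came mostly from the low value of replicate 1. Genes are not replicates, so the difference between the classes was not tested. The class of some copies is less sure, namely Vha68-1, Vha100-1, VhaM9.7-a and VhaM9.7-c. With these moved to the principal copies, the share of other paralogs fell to 13.3% (2 of 15). All of the moved genes were bound, so the move could only widen the gap, and it is no check on the contrast. In the upper 50 percent of the IDR list the share of other paralogs, as first defined, was 5.26% (1 of 19). This compares with 57.1% of principal copies and 17.2% of all genes.

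In the combined list, which admits weaker peaks, the contrast between the copies was wider. In the combined relaxed list all 14 principal copies had a summit in that window, against the same 6 of 19 other paralogs (31.6%), where 45.5% of all protein-coding genes had one. The step from 29.2% to 45.5% of all genes thus added 4 principal copies and 0 other paralogs. In the relaxed lists of the libraries the principal copies had a summit at 95.2% ± 8.25, the other paralogs at 38.6% ± 12.2, and all genes at 47.4% ± 6.25 (SD, n = 3). By library, all genes were at 42.6%, 54.5% and 45.2% in replicates 1, 2 and 3, and the other paralogs at 31.6%, 52.6% and 31.6%. In replicate 2, which has the longest list, the other paralogs were thus near the share of all genes, and the gap between the classes was narrower than among its strongest peaks. The 13 unbound paralogs had no summit within 500 bp in the relaxed list of replicate 1 or of replicate 3. In the longest list, that of replicate 2, 4 of them had one (Vha36-3, Vha100-4, VhaPPA1-2 and VhaM9.7-d), at ranks 28699, 18450, 29306 and 22429 of 30000. The nearest IDR summit to any of the 13 was 3967 bp away, at VhaPPA1-2, and the median distance was 17128 bp.

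**Figure D1:**
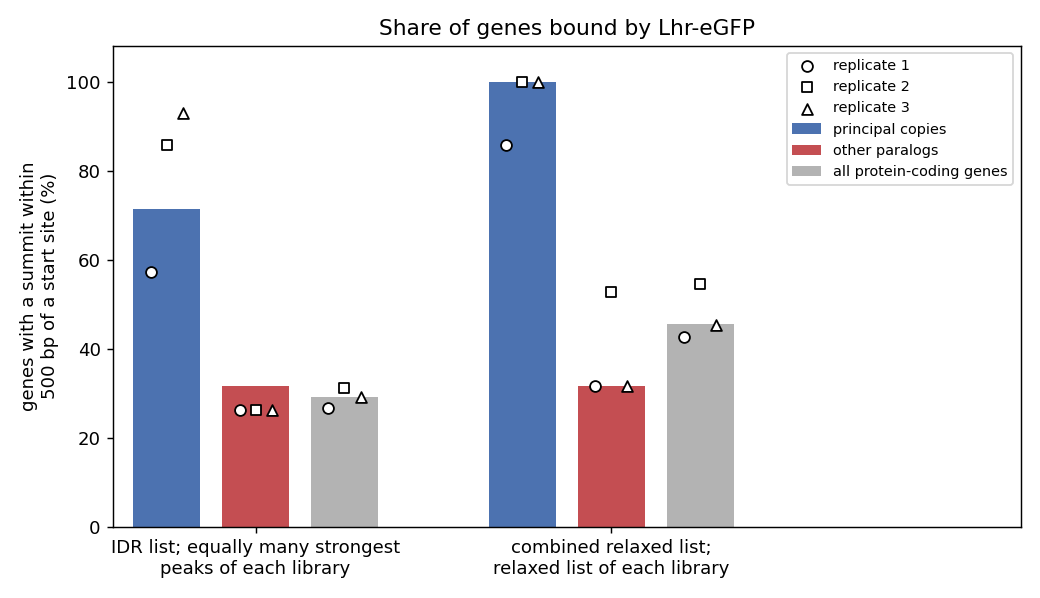
Percentage of genes bound, by class. Bars give the IDR list (left) and the combined relaxed list (right), and points give each library with as many of its strongest peaks (left) or its whole relaxed list (right). Principal copies reach 71.4% and 100%, other paralogs stay at 31.6% in both, and all protein-coding genes go from 29.2% to 45.5%.

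The threshold itself fell between members. Just inside was Vha16-5, a copy of the proteolipid ring subunit, at rank 5090 with a signal of 176. Just outside was VhaSFD, subunit H, at rank 5213 of the combined list with a signal of 172. These 2 genes are on opposite sides of the call with nearly equal signal. VhaSFD was among the strongest peaks in replicates 2 and 3, and Vha16-5 in replicate 3 alone.

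In the V1 sector the principal copies of both catalytic ring subunits were bound. Vha55 encodes subunit B, which with subunit A forms the ring that hydrolyses ATP, and it had the highest rank of any member. Its summit was at rank 35 in the IDR list, and at ranks 30, 33 and 35 in replicates 1, 2 and 3, with library signals of 662, 495 and 645. In the libraries it lay at −40, −51 and −48 bp, a spread of 11 bp, and the IDR summit was at −49 bp. A second, weaker summit, at −257 bp in the combined list, lay 55 bp from the start of the divergent neighbour Snx3, a sorting nexin gene. It had rank 5843 and so missed the IDR list, although in replicate 2 it was among the strongest peaks, at rank 4061. Vha55 was thus far ahead of the other V1 genes in every library.

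Subunit A has 3 genes, of which 2 were bound. Vha68-2, the principal copy, had ranks 2517, 1842 and 1259 in replicates 1, 2 and 3 and rank 1738 in the IDR list, with summits from −104 to −126 bp. Vha68-1, whose protein is 91.9% identical to that of Vha68-2, had ranks 3009, 2795 and 3546 and rank 2841 in the IDR list, at −112 bp. Both were found in all libraries, and Vha68-1 ranked below Vha68-2 in each of them. Vha68-1 has a divergent neighbour 373 bp upstream, mTor, the kinase gene of the growth pathway that senses amino acids at the lysosome, and the summit lay nearer to the start of Vha68-1. Vha68-3, 61.8% identical to Vha68-2, starts right behind Vha68-2, with 178 bp between the genes, which is the whole stretch printed above. It had no summit within 500 bp in any relaxed list.

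At Vha44, Vha36-1 and Vha26 the strongest IDR summit lay nearer to the start of a divergent neighbour. Vha44, subunit C, which joins the sectors and leaves when the pump comes apart, had ranks 4412, 4487 and 3307 in replicates 1, 2 and 3 and rank 3975 in the IDR list. Its IDR summit at −71 bp lay nearer to the start of Hmgs, an enzyme gene of the mevalonate pathway that starts 123 bp upstream. In replicates 1 and 3 the summit lay 8 and 52 bp from the Hmgs start, while in replicate 2 it lay 3 bp from the start of Vha44. Vha36-1, subunit D of the central shaft, had ranks 7568, 3579 and 4003 and rank 3764 in the IDR list, and its summit lay nearer to the divergent CG8187, 72 bp upstream. Replicate 1 alone put it below the 5190 strongest peaks.

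Vha26, subunit E of the outer stalk, was the 1 bound member with no summit in a library. It had 2 summits in the IDR list, at −230 bp (rank 2291) and −30 bp (rank 4834). Replicate 2 placed its strongest summit at −162 bp with rank 2533, and replicate 3 at −219 bp with rank 1787. Replicate 1 listed none within 500 bp, and its nearest relaxed summit was 7959 bp away. The stronger IDR summit lay 74 bp from the start of the divergent gene noi, which encodes a splicing factor. The weaker one lay 30 bp from the start of Vha26.

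The 3 unbound principal copies of V1 all had summits below the threshold. VhaSFD had ranks 8556, 3401 and 3714 in replicates 1, 2 and 3, from −76 to 19 bp. Vha14-1, subunit F, had ranks 5012 and 5011 in replicates 2 and 3, none in replicate 1, and rank 5771 in the combined list at −14 bp. An IDR summit of rank 2134 lay 867 bp downstream of its start, outside the window and beyond the far end of the gene. Vha13, subunit G, had ranks 11888, 7674 and 8142 and rank 7073 in the combined list at −134 bp, so it was outside the strongest peaks of every library. In each of these 3 genes replicate 1 gave the lowest rank or none. Of the 5 other paralogs of V1 genes, Vha68-1 alone was bound. Vha36-2, Vha36-3, Vha14-2 and Vha68-3 were not bound, and Vha36-3 was not although its protein is 83.9% identical to that of Vha36-1.

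In the V0 sector 5 of 6 principal copies were bound, all of them in the upper 50 percent of the list. Vha16-1 encodes the proteolipid of the rotating ring, and its summit had ranks 483, 393 and 453 in replicates 1, 2 and 3, with signals of 258, 216 and 263. Its rank was 445 in the IDR list, at −90 bp, and its library summits at −114, −122 and −112 bp differed by 10 bp. VhaAC45, an accessory subunit, had ranks 585, 441 and 589 and signals of 240, 208 and 239. Its IDR summit was at rank 557, −188 bp from the start, with the divergent Gnptab 437 bp upstream. VhaPPA1-1, subunit c″ of the same ring, had ranks 1861, 887 and 1008 and rank 1222 in the IDR list, at −183 bp. These genes kept high ranks in every library, and Vha16-1 and VhaPPA1-1 have no divergent neighbour within 1000 bp.

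**Figure D2:**
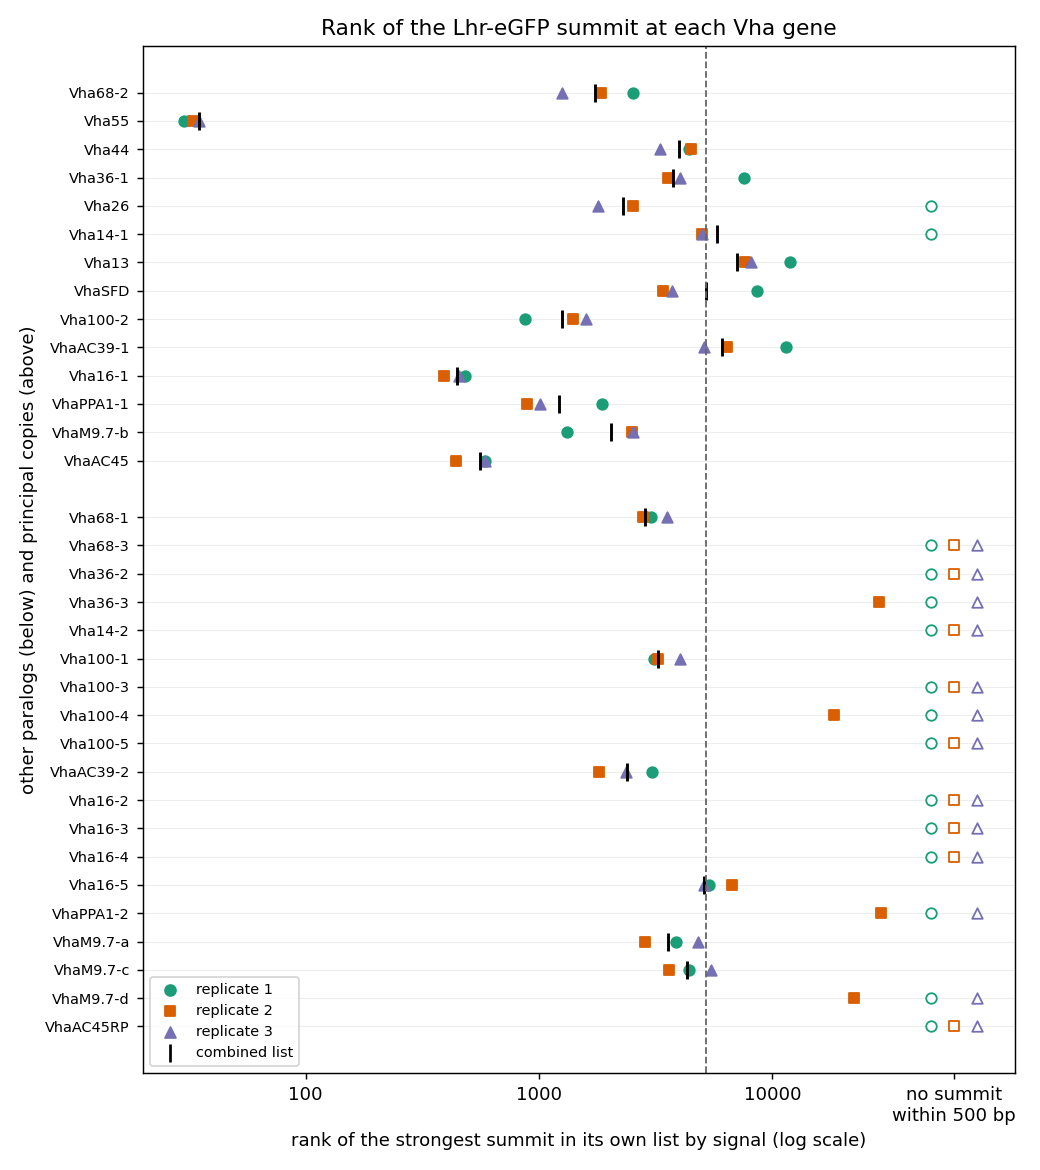
Rank of the strongest summit within 500 bp of a start site at each of the 33 genes, on a log axis. Coloured marks are the 3 relaxed library lists, the black bar is the combined list, open marks on the right mean no summit, and the dashed line is the length of the IDR list, 5190. Principal copies (upper block) have a summit in nearly every library, from rank 30 for Vha55 to 11888 for Vha13, while 13 other paralogs (lower block) have none or 1 at a low rank in replicate 2.

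Vha100-2, the principal copy of subunit a, through which protons pass, had a separate summit at each of its 2 start sites. In the IDR list these were at −456 bp (rank 1260) and −291 bp (rank 1392). The better-ranked summit of each library had ranks 875, 1401 and 1588 in replicates 1, 2 and 3. In replicates 1 and 2 it was the one at the outer start site and in replicate 3 the one at the inner, and both were among the strongest peaks of each library. Both lay nearer to start sites of the divergent Vti1b, a SNARE gene, at 84 and 224 bp. Vha100-1, the copy known from synaptic vesicles in neurons, had ranks 3108, 3228 and 4002 and rank 3246 in the IDR list, at −62 bp. Its divergent neighbour dgt6, an augmin gene of the spindle, starts 221 bp upstream, and the summit lay nearer to Vha100-1. Vha100-3, Vha100-4 and Vha100-5 were not bound, at protein identities to Vha100-2 of 35.0%, 64.7% and 65.3%, against 57.6% for the bound Vha100-1.

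Subunit d, which couples the shaft to the ring, was the case where the other paralog was bound and the principal copy was not. VhaAC39-2 had ranks 3053, 1816 and 2358 in replicates 1, 2 and 3 and rank 2380 in the IDR list, at −197 bp, and it has no divergent neighbour. VhaAC39-1 had ranks 11502, 6418 and 5094, and rank 6100 in the combined list at −39 bp. It was among the strongest peaks of replicate 3 alone. VhaAC39-2 ranked above VhaAC39-1 in all 3 libraries, and their proteins are 45.3% identical. In the IDR list VhaAC39-2 was also the best-ranked of the 6 bound other paralogs, as in replicates 2 and 3, while in replicate 1 Vha68-1 was ahead of it.

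Subunit e, a small membrane subunit, was the family with most bound copies, 3 of 4. VhaM9.7-b, the principal copy, had ranks 1321, 2502 and 2530 and rank 2037 in the IDR list, at −209 bp, about midway to COX8, a gene of mitochondrial respiration that starts 415 bp upstream. VhaM9.7-a had ranks 3883, 2838 and 4821 and rank 3583 in the IDR list, nearer to the divergent CG11586. VhaM9.7-c had ranks 4384, 3607 and 5461 and rank 4327, at 9 bp, the single IDR summit downstream of a start among the strongest of each bound member. VhaM9.7-d was not bound. Of the ring subunit's other genes, Vha16-5 was bound at ranks 5376, 6698 and 5102 in replicates 1, 2 and 3, nearer to the divergent CG12299. Vha16-2, Vha16-3 and Vha16-4 were not bound and had no relaxed summit in any library, although Vha16-3 is 82.5% identical to Vha16-1. VhaAC45RP and VhaPPA1-2 were not bound.

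Bound principal copies had a higher median rank than bound other paralogs. The median IDR rank of the strongest summit was 1499 for the 10 bound principal copies, 3414.5 for the 6 bound other paralogs, and 2181 for all 4085 bound protein-coding genes. In the upper 50 percent of the IDR list lay 8 of the 10 principal copies and 1 of the 6 other paralogs, VhaAC39-2, where it was 58.8% of all bound genes. The medians were 1098, 2172 and 1787 for principal copies in replicates 1, 2 and 3, and 3108, 2838 and 4002 for other paralogs. The order was the same in each library, but these medians cover only the genes bound in that library. The classes overlapped, as Vha44 (IDR rank 3975) and Vha36-1 (3764) ranked below the other paralogs VhaAC39-2, Vha68-1, Vha100-1 and VhaM9.7-a. The strongest summit lay nearer to another gene's start at 5 of the 10 principal copies and 2 of the 6 other paralogs.

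Summits lay upstream of the start at 15 of the 16 bound members. The median position was −136.5 bp, with a range from −456 to 9 bp, and −114, −122 and −119.5 bp in replicates 1, 2 and 3. For all bound protein-coding genes the median was −108 bp, with 92.5% upstream. At 15 of the bound members, all but Vha26, each library had a summit, and the genomic spread of the strongest ones had a median of 36 bp. It ran from 10 bp at Vha16-1 to 112 bp at Vha44, except at Vha100-2, where it was 2444 bp because the libraries' strongest summits belong to different start sites. Replicate medians for all genes were −114, −104 and −106 bp, so in replicate 1 the members and all genes had the same median.

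**Figure D3:**
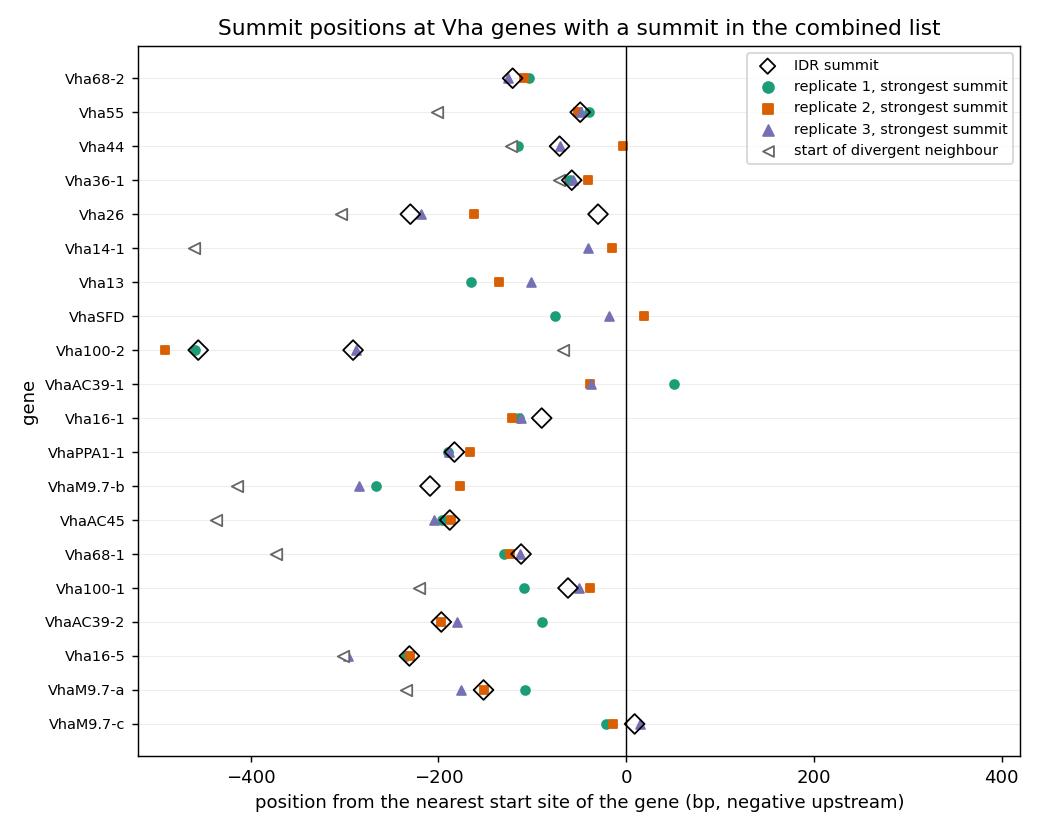
Position of summits from the nearest start site of the gene, in bp, for the 20 members with a summit in the combined list. Diamonds are IDR summits, coloured marks are the strongest summit of each relaxed library list, and open triangles are the nearest start of a divergent neighbour where it lies within 500 bp. All strongest IDR summits except that of VhaM9.7-c, at 9 bp, lie upstream.

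Neighbours differed between the classes. A divergent protein-coding gene, one on the opposite strand that starts within 1000 bp upstream, was present at 9 of 14 principal copies (64.3%) and at 5 of 19 other paralogs (26.3%), against 36.2% of all protein-coding genes. Among members with such a neighbour, 7 of 9 principal copies and 4 of 5 other paralogs were bound, against 51.2% of all such genes. Among members without one, 3 of 5 principal copies (Vha68-2, Vha16-1 and VhaPPA1-1) and 2 of 14 other paralogs (VhaAC39-2 and VhaM9.7-c) were bound, against 16.8% of all such genes. In the IDR list the classes thus had nearly the same share where a neighbour was present and different shares where none was. Over the libraries' strongest peaks, the shares with a neighbour were 77.8% ± 19.2 for principal copies and 66.7% ± 11.5 for other paralogs. By library they were 55.6% and 60% in replicate 1, 88.9% and 60% in replicate 2, and 88.9% and 80% in replicate 3. The order of the classes was thus reversed in replicate 1. The shares without a neighbour were 80% ± 20 for principal copies and 11.9% ± 4.12 for other paralogs (SD, n = 3). In the combined list, the counts with a neighbour were 9 of 9 and 4 of 5, against 69.7% of all such genes, and without one 5 of 5 and 2 of 14, against 31.9%. The part that neighbours have in the difference between the classes was not tested. The strongest summit lay nearest to the member's own start at 9 of the 16 bound members, and nearer to another gene's start at 7 (43.8%), against 30.4% of all bound protein-coding genes. Some of these 7 assignments were close. At VhaM9.7-b the summit lay 206 bp from the COX8 start and 209 bp from the VhaM9.7-b start. In replicate 2 the strongest summit was nearest to the own start at Vha44 and VhaM9.7-b, and in replicate 1 at VhaM9.7-a. When a summit counted only for the gene whose start was nearest, 6 of 14 principal copies (42.9%) and 4 of 19 other paralogs (21.1%) were bound, against 21.2% of all genes, a share that the other paralogs match.

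Neighbouring copies of 1 subunit showed the contrast within a few kilobases. In each of 3 adjacent pairs on the same strand the principal copy was bound and the copy behind it was not. These were Vha68-2 with Vha68-3 (178 bp between the genes), Vha100-2 with Vha100-4 (517 bp), and VhaPPA1-1 with VhaPPA1-2 (2052 bp). At Vha100-2 both summits lay nearer to starts of the divergent Vti1b. Vha100-2 was not bound with a window of 200 bp, or with each summit given to its nearest start. The adjacent Vha16-2 and Vha16-3 are both other paralogs and neither was bound. Members of a pair share their surroundings, so the 3 pairs are described and not counted as independent cases.

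**Figure D4:**
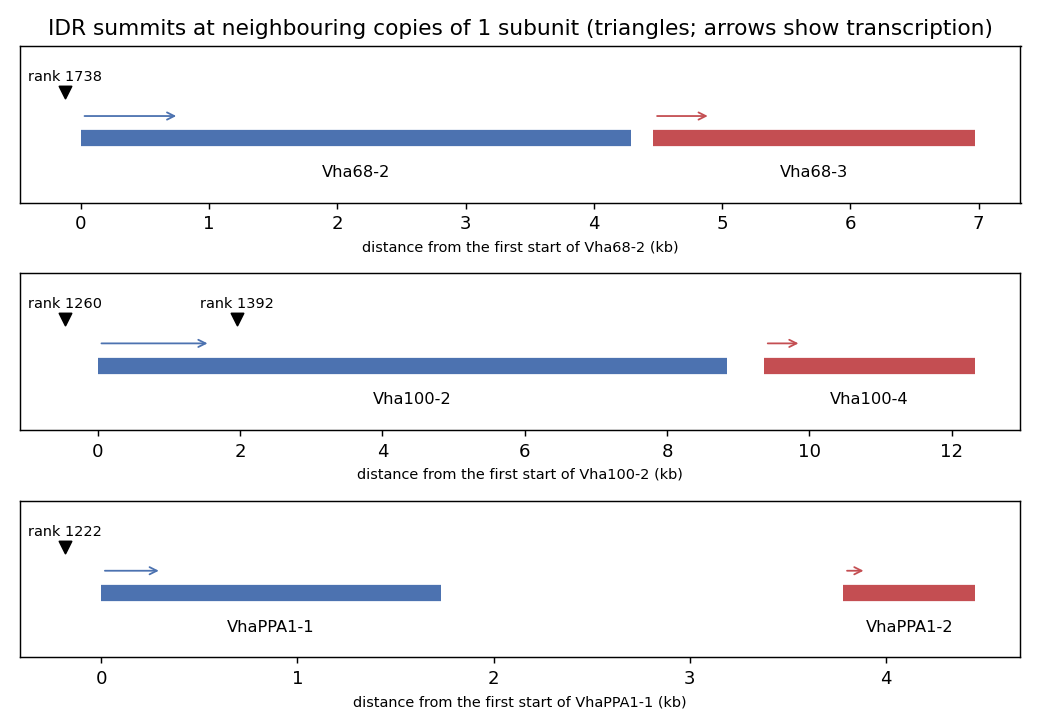
The 3 adjacent pairs of copies, drawn to scale in kb from the first start of the principal copy (blue), with the other paralog in red. Triangles are IDR summits with their rank: 1738 at Vha68-2, 1260 and 1392 at Vha100-2, and 1222 at VhaPPA1-1, and none lies at the start of a red gene. The summits at Vha100-2 lie nearer to starts of Vti1b, which is not drawn.

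Known promoter words were found at bound and at unbound members. Words were searched on both strands from 250 bases before to 50 after the gene's 5′ end. The M1BP word GGTCACACT was present at Vha68-2, Vha26 and Vha100-1, 3 of 16 bound members and 0 of 17 unbound ones. This is 9.09% of all members, against 6.04% of all protein-coding promoters. At Vha26 and Vha100-1 the word begins 2 bases before the start site, and at Vha68-2 it lies at −164, as printed above. The DRE word TATCGATA was present at Vha55, at −189, and at VhaSFD, at −23, 1 bound and 1 unbound gene, against 9.36% of all promoters. Within 100 bp of the strongest member summits, the M1BP word lay at 2 of 16 and the DRE word at 0 of 16. Of all IDR summits, 6.59% had the M1BP word and 7.21% the DRE word within that distance. These counts are small and were not tested. TATAAA was present at 8 of 16 bound and 9 of 17 unbound members (45.8% of all promoters), GAGAG at 5 and 4 (29.7%), and the E-box CAGCTG at 3 and 5 (17.6%). A match says only that these letters are there.

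The M-box TCACGTGA is the element bound by Mitf, the fly relative of mammalian TFEB, which is known to switch on pump and lysosome genes. It was present at 1 of 33 member promoters, that of Vha44, at −48, where 0.172% of all promoters (24 genes) held it. It lay 27 bp from the Vha44 summit, and 7 of all 5190 IDR summits (0.135%) had it within 100 bp. The shorter E-box CACGTG, which is contained in the M-box, was present at Vha44, VhaM9.7-d and VhaAC45RP, against 4.20% of all promoters. A further M-box lay at −99 bp from the last of the 5 start sites of Vha68-2, 1106 bp from its summit. No match at the other genes says only that these letters are not in this window.

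Many other genes of lysosome function were bound too. Of 36 genes in 4 lists, 23 were bound in the IDR list (63.9%). This compares with 48.5% of the members, 71.4% of the principal copies alone and 29.2% of all protein-coding genes. In the combined list 31 had a summit, beside 20 of 33 members, all 14 principal copies and 45.5% of all genes. Of 5 genes of pump assembly and regulation, 4 were bound, namely mtd, CG7071, Rbcn-3A and Mitf. Mitf was at rank 4462, 483 bp downstream of a start site and among the strongest peaks of 2 libraries. Of 15 lysosomal protein genes 8 were bound, led by Sap-r, the saposin precursor, at rank 123, followed by CtsL1, a cathepsin gene, at 765, Hexo2 at 973 and Lamp1 at 2299. Of 6 genes of the HOPS tethering complex, which fuses vesicles with lysosomes, 5 were bound, with lt at rank 1083, Vps39 at 1713, car at 2129 and Vps11 at 3835. Of 10 genes of the Rag and TORC1 pathway 6 were bound, with Lamtor3 at rank 374, Rheb at 1280, Lamtor2 at 1638 and Lamtor4 at 3941. The kinase gene mTor is not among the 10, because its listed name, Tor, matched no single symbol. The IDR summit at Vha68-1 lies between the starts of Vha68-1 and mTor, and so within 500 bp of both. ATP6AP2, an accessory subunit gene of the pump whose older symbol began with Vha, is not a member, and it was bound at rank 3418, −34 bp from its start, in 2 of 3 libraries. These lists mix genes of many roles, and their share was not tested against that of the members.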

How the data were processed

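Lhr-eGFP ChIP-seq peak lists of 3 libraries were analysed. Chromatin was sonicated to 200 to 800 bp, per the labels. The authors called relaxed peaks in each library against a control alignment, then a combined and an IDR-thresholded list, per the deposited listings. Not given in the sources used here are the aligner, the caller and the threshold on IDR. The deposited signal value is the authors' own enrichment per peak and ranks peaks within 1 list only. The last deposited column, another kind of value, is the summit offset, added to the peak start. The dm3 lists were not used, since gene starts were of Release 6 (dm6, Ensembl release 115).

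Lists of 22598, 30000 and 18934 peaks (replicates 1, 2 and 3) were each reduced to the 5190 strongest where equal lengths were needed. Python 3.11.15 was used, with Biopython 1.88 for global protein alignments (BLOSUM62, gap costs 11 and 1, identity over all alignment columns) of the longest translated coding sequence. The search for summits was checked on planted positions. No test over genes was run. The members, the classes and the gene lists were chosen with earlier results of these data known. All members could be named. Of the other pathway genes, Mitf and up to 4 bound genes of each list by signal were named. The names Vma21, CtsD and Tor matched no single symbol, and Cp1 and CtsB1 are older names of CtsL1 and CtsB. Alternatives were other windows, lists, assignments of summits and classes, and leaving out each library (peaks of the other libraries with summits within 100 bp of each other).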

Additional observations from a re-analysis of the deposited data

How the results depend on the processing

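No paired analysis was possible because all libraries belong to 1 group. A value was taken as moved when it differed by more than the SD over the libraries. Of 33 members the main share was 48.5%. It was 39.4% with a window of 200 bp, 27.3% with the upper 50 percent of IDR peaks, 60.6% with the combined relaxed list, 62.6% as a mean of the relaxed library lists, and 30.3% with each summit given to its nearest start. Leaving out 1 library gave 33.3% to 48.5%, from lists of peaks shared by the other libraries, which bind fewer genes in all. For principal copies (71.4%) it was 57.1% both with a window of 200 bp and with the upper 50 percent of peaks. It was 100% in the combined list, 95.2% in the relaxed library lists, 42.9% with the nearest start only, and 50% to 85.7% without 1 library, lowest without replicate 3. The SD was 18.9 for principal copies and 0 for other paralogs, so a shift counts as moved far more readily in the latter. The share of other paralogs was 31.6% in the IDR list and 26.3% among the strongest peaks of each library. For this class the settings gave 26.3% with 200 bp, 5.26% with the upper 50 percent of peaks and 38.6% in the relaxed library lists. The share was 21.1% with the nearest start only, and 21.1% without any 1 library. With Vha68-1, Vha100-1, VhaM9.7-a and VhaM9.7-c counted as principal copies, the other paralogs fell to 13.3% (2 of 15) and the principal copies stood at 77.8% (14 of 18). All of these moved genes were bound, so this alternative could only widen the gap between the classes. For members that lack a divergent neighbour, an alternative added after seeing the data, the shares were 60% and 14.3%. Principal copies had the higher share in each setting given here. Among members with a divergent neighbour they did not, at 77.8% against 80% of other paralogs in the IDR list. The median position was −90 bp (200 bp window), −121 bp (1000 bp), −188 bp (upper 50 percent), −116 bp (combined list and relaxed library lists) and −101 bp (nearest start), and −123 to −114 bp without 1 library. Over all genes, 23% were bound with a window of 200 bp and 32.2% with 1000 bp, 17.2% with the upper 50 percent of peaks, 21.2% with the nearest start only, and 22.6% to 24.6% without 1 library. With the window of 1000 bp, Vha14-1 was added, through a summit beyond the far end of the gene, and no member was lost. Shares can only fall with a narrower window, the upper 50 percent of peaks or the nearest start only. They can only rise with a wider window or the combined list. The cause of the other shifts was not tested. Depth is unknown, so a missing summit may lie below what these lists could record.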

Other observations

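Apart from summits within 500 bp of their own starts, 2 members held an IDR summit within the gene itself. At Vha16-1 it had rank 4049 and lay 1656 bp from the nearest annotated start, which is one of its own. At Vha13, whose promoter missed the IDR list, it had rank 5130. It lay 416 bp from the start of the neighbouring gene subdued, inside the 500 bp window of that gene.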
